A study of Mus musculus with 44 samples.

Results

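The 10 genes described here belong to bone morphogenetic protein (BMP) signalling and were followed through the mouse skeletal stem cell hierarchy, in mRNA and in N6-methyladenosine (m6A) enrichment. They were chosen by gene symbol from the deposited count table. They comprise 3 ligands (Bmp2, Bmp4, Bmp6), 3 type I receptors (Bmpr1a, Bmpr1b, Acvr1), the type II receptor Bmpr2 and 3 Smads (Smad1, Smad5, Smad4). They are 10 of the 46831 genes analysed, and all 10 passed the filter on low counts in every comparison. BMP ligands are secreted dimers that bring type I and type II receptor kinases together. The type II receptor phosphorylates the type I receptor, which phosphorylates Smad1 and Smad5, and these enter the nucleus with Smad4 to regulate target genes such as the Id family. In the growing limb the pathway is known for its roles in cartilage and bone formation.

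The cells were sorted from long bones of C57Bl6 mice at postnatal day 3. Wild-type (WT) libraries covered 8 populations: skeletal stem cells (SSC), pre-bone-cartilage-stromal progenitors (pBCSP) and bone-cartilage-stromal progenitors (BCSP), then 5 downstream populations, the pro-chondrogenic progenitor (PCP), the THY and 6C3 subpopulations, the B-cell lymphocyte stromal progenitor (BLSP) and the hepatic leukemia factor expressing cell (HEC). SSC, pBCSP and BCSP were also sequenced from animals labelled Mettl3cko, which per the study carry floxed Mettl3 alleles and Col2a1-Cre, with Mettl3fl/fl mice as WT controls. Mettl3 is the catalytic subunit of the m6A writer complex, and the Col2a1 promoter drives Cre mainly in cartilage-forming cells. Each of the 22 conditions had 2 libraries, and the study collected mice of either sex from several litters. The study counts the 2 as biologically independent experiments. Which animals went into a library is not given in the sources used here. For every population an m6A immunoprecipitate (IP) and an input library were made. The input gives the mRNA level, and the ratio of IP to input gives relative m6A enrichment of a gene's transcripts.

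The 44 libraries held between 16480027 and 44046651 counts. Log2 levels of replicate libraries correlated across genes at 0.912 to 0.976 for WT input and 0.767 to 0.887 for WT IP. For Mettl3cko IP the same correlations were only 0.444 to 0.538. Summed cartilage markers were 86989 to 104018 CPM (counts scaled to the library total) in SSC, pBCSP and BCSP input. Downstream they were 6619 to 95108 CPM. Summed bone markers were 5468 to 11546 and 62334 to 141533 CPM. The bone sum was mostly Col1a1, which averaged 5003 to 11390 CPM in SSC, pBCSP and BCSP and 68923 to 133527 CPM downstream. Ibsp, in the same sum, averaged 1254 CPM in SSC, 63.1 CPM in pBCSP and 2449 CPM in BCSP. It averaged 1886 CPM in PCP and 7.44 to 338 CPM in the other downstream populations. Alpl averaged 387, 25.9 and 516 CPM in SSC, pBCSP and BCSP, 390 CPM in PCP and 43.8 to 245 CPM in the others. Blood markers summed to 5.78 to 16.1 CPM in SSC, pBCSP and BCSP input and to 12.3 to 87.7 CPM downstream. Endothelial markers summed to 81.8 and 86.0 CPM in PCP and to at most 21.3 CPM in any other WT input library. The Mettl3 gene gave 16.7 to 23.5 CPM in the 6 Mettl3cko input libraries against 12.5 to 20.3 CPM in the 6 WT libraries of the same populations. Gene-level counts thus showed no loss of Mettl3 mRNA. Which exons are floxed is not given in the sources used here, and exons were not counted apart. These counts therefore do not check the labels, and each library is called here by its label. The study examined the deletion with other assays, which are not analysed here.

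The m6A writer prefers an adenosine between a purine and a cytosine, and GGACT is the classical form of that motif. Windows of 25 bases around the GGACT nearest the stop codon are shown for 4 members that differ in IP enrichment below. They are read 5′ to 3′ on the transcript strand of the GRCm38 annotation (GENCODE vM21), and capitals mark the motif.
Bmpr2, 3′ UTR, chr1:59870594-59870618, + strand: cctgcagcaaGGACTtgctttaaat
Smad1, 3′ UTR, chr8:79339407-79339431, - strand: actttcagcaGGACTtttgtgtata
Bmp6, coding sequence, chr13:38469719-38469743, + strand: gcgtctacaaGGACTgtgtggtggg
Bmp4, 3′ UTR, chr14:46383720-46383744, - strand: ccctatagctGGACTtttatcttaa
The motif was searched as GGACT on the sense strand of 1 protein-coding transcript a gene, and 90.8% of 17411 such transcripts hold it, with a median of 1.04 motifs per kilobase. Bmp4 had the densest motif of the 10 members (2.42 per kilobase) and Bmpr1a the sparsest (0.336 per kilobase). These are matches of letters in the annotation, and the files do not place m6A within a transcript.

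Among the ligands, Bmp2 and Bmp4 were the most abundant members per kilobase of exon, at 41.6 and 26.4 CPM per kilobase on average over the 8 WT populations. Bmp2 (chr2:133552159-133562885, + strand), a ligand that drives both cartilage and bone formation, was measured at 259 and 266 CPM in HEC and at 168 and 209 CPM in SSC. It stood at 131 and 207 CPM in 6C3, 128 and 155 CPM in BCSP, 103 and 137 CPM in pBCSP, 106 and 119 CPM in PCP, 110 and 112 CPM in THY and 76.8 and 82.0 CPM in BLSP. HEC thus lay above every other population in both libraries, and BLSP below every other. The mean in HEC was 3.30-fold that in BLSP (log2 difference 1.70 ± 0.24 SE, adjusted p = 0.00026, edgeR).

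Bmp4 (chr14:46383520-46390669, - strand), the close relative of Bmp2, followed another order. It was measured at 114 and 113 CPM in 6C3, 90.5 and 98.1 CPM in HEC, 67.2 and 81.1 CPM in THY and 56.7 and 57.9 CPM in pBCSP. The lower values were 37.5 and 42.6 CPM in BLSP, 33.7 and 41.2 CPM in BCSP, 34.4 and 25.7 CPM in PCP and 25.9 and 29.6 CPM in SSC. The 6C3, HEC, THY and pBCSP libraries did not overlap with the libraries of the other 4 populations, and SSC and pBCSP differed by 1.03 ± 0.20 SE on the log2 scale (higher in pBCSP, adjusted p = 0.020). The mean in 6C3 was 4.08-fold that in SSC (log2 difference 2.08 ± 0.20 SE, adjusted p = 4.6e-06).

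Bmp6 (chr13:38345107-38500302, + strand), a ligand best known for its part in iron control and also made by hypertrophic cartilage, was lower, at 4.79 CPM per kilobase. It ranged from 5.58 and 7.25 CPM in BLSP to 31.3 and 34.7 CPM in HEC, a 5.14-fold difference of means (log2 difference 2.33 ± 0.48 SE, adjusted p = 0.0052; 0.066 without BLSP input replicate 1). The 6C3 libraries disagreed for this gene, at 8.91 and 34.5 CPM. BCSP, at 22.3 and 30.1 CPM, was the highest of the stem and progenitor populations. Over 224 exonic bases Bmp6 overlaps Txndc5 on the opposite strand, and whether the counting used strand is not given in the sources used here.

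**Figure D1:**
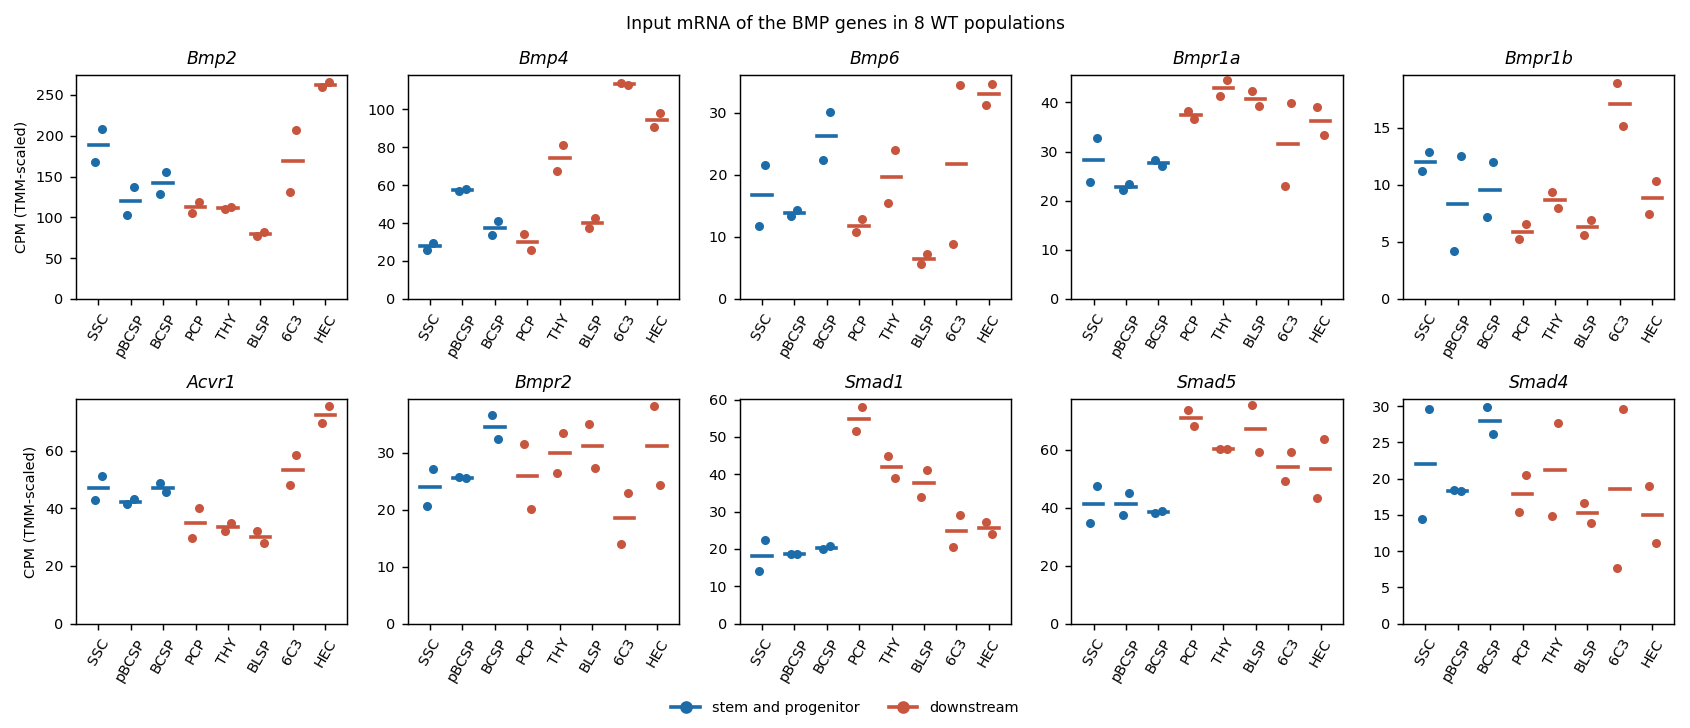
Input mRNA of the 10 members in the 8 WT populations, as CPM after TMM scaling (y axis, from 0) against population (x axis). Points are the 2 libraries of a population and lines their mean, blue for SSC, pBCSP and BCSP and red for the 5 downstream populations. Bmp2 reached 259 and 266 CPM in HEC, and Smad1 stayed between 14.0 and 22.3 CPM in the 6 blue libraries.

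Of the type I receptors, Acvr1 (chr2:58388644-58567157, - strand; also known as ALK2) was the most abundant per kilobase, at 9.33 CPM per kilobase. Its order resembled that of Bmp2: 69.5 and 75.4 CPM in HEC at the top and 32.1 and 27.8 CPM in BLSP at the bottom, a 2.42-fold difference (log2 difference 1.24 ± 0.21 SE, adjusted p = 0.0013). Over the 16 WT input libraries the log2 levels of Acvr1 and Bmp2 correlated at Pearson r = 0.915, and Acvr1 was the gene most like Bmp2 of all genes compared. Those 16 points are 2 libraries from each of 8 populations, so that they share populations and depth.

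Bmpr1a (chr14:34410734-34503341, - strand; ALK3), the type I receptor that skeletal progenitors widely use, was ordered differently. It was lowest in pBCSP (22.2 and 23.5 CPM) and highest in THY (41.2 and 44.6 CPM), a 1.88-fold difference (log2 difference 1.05 ± 0.25 SE, adjusted p = 0.0060; 0.050 without pBCSP input replicate 1). PCP and BLSP, at 36.6 to 42.4 CPM, lay above all 6 SSC, pBCSP and BCSP libraries, which reached 32.7 CPM. Bmpr1a shares 3.67% of its 75-base words, and 290 exonic bases, with Gm17110 on the opposite strand. Bmpr1b (chr3:141837136-142169425, - strand; ALK6), a receptor of early cartilage condensations, was scarce, at 1.61 CPM per kilobase, with 15.1 and 18.9 CPM in 6C3 and at most 12.9 CPM in any other library. The pBCSP libraries gave 4.17 and 12.5 CPM for it. The type II receptor Bmpr2 (chr1:59763400-59879014, + strand) was between 13.9 and 38.1 CPM and had the lowest level per kilobase of all members, 1.53 CPM per kilobase.

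Both receptor-activated Smads among the members were higher downstream. Smad1 (chr8:79338395-79399518, - strand) was measured at 51.6 and 57.9 CPM in PCP, 44.9 and 39.1 CPM in THY, 34.0 and 41.2 CPM in BLSP, 20.5 and 29.1 CPM in 6C3 and 27.2 and 24 CPM in HEC. In SSC it was 14.0 and 22.3 CPM, in pBCSP 18.7 and 18.6 CPM and in BCSP 19.9 and 20.8 CPM. PCP, THY and BLSP lay above every SSC, pBCSP and BCSP library, and only the lower 6C3 library reached down into their range. PCP was 3.01-fold SSC (log2 difference 1.67 ± 0.26 SE, adjusted p = 0.00016). Smad5 (chr13:56703010-56742377, + strand), the closest paralog of Smad1, spanned 34.7 to 47.6 CPM in SSC, pBCSP and BCSP and 43.2 to 75.3 CPM downstream. No 75-base word is shared between the annotated transcripts of Smad1 and Smad5. Smad4, the partner of all receptor-activated Smads, ranged from 7.73 to 29.8 CPM, and both extremes of the downstream populations, 7.73 and 29.5 CPM, came from 6C3.

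Tested across the 8 WT populations at once, 7 of the 10 members differed in mRNA (adjusted p under 0.05, edgeR quasi-likelihood test), where 40.1% of all 20060 genes tested did. Adjusted p was 1.6e-06 for Bmp4, 0.00016 for Smad1, 0.00049 for Bmp2, 0.0025 for Acvr1, 0.011 for Smad5, 0.017 for Bmp6 and 0.028 for Bmpr1a. Bmpr1b (0.095), Bmpr2 (0.22) and Smad4 (0.76) did not pass. The Bmpr1a call was lost when any single pBCSP, THY or BLSP library was left out (adjusted p 0.052 to 0.084), and the Bmp6 call without BLSP replicate 1 (0.061). Bmpr1b gained a call when either pBCSP library was left out. It also gained one with DESeq2 (adjusted p = 0.029) and with no filter on low counts (edgeR adjusted p = 0.0053), where 8 of the 10 members were called. Of all genes, 10271 of 20060 were called with DESeq2 and 9726 of 35540 with no filter. Of the 280 pairs of populations for the 10 members, 63 passed, 17 of them for Bmp4, 11 for Smad1, 9 each for Bmp2 and Smad5, and none for Smad4. Over all genes and pairs 15.1% passed. When the 8 populations were ordered by mean for each gene, 0 of the 70 pairs of neighbours in that order passed, so that the orders are resolved between distant populations and not from step to step. These tests, like the folds between the highest and lowest population, were read after ordering, so their p-values do not account for the choice.

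SSC, pBCSP and BCSP were then compared as a group with the 5 downstream populations, the division the study draws between stem and early progenitor cells and their descendants. Smad1, Bmp4, Smad5 and Bmpr1a were lower in SSC, pBCSP and BCSP, and none of the 10 was higher. The log2 differences were -0.97 ± 0.13 (SE) for Smad1, -0.76 ± 0.10 for Bmp4, -0.68 ± 0.12 for Smad5 and -0.61 ± 0.13 for Bmpr1a. Their adjusted p (edgeR) lay between 1.6e-05 and 0.0011. These are 4 of 10 members lower, where 28.3% of the 20060 genes were lower and 23.1% higher, and the median difference was -0.0090 over the members and -0.11 over all genes. For Smad1 the 6 libraries of SSC, pBCSP and BCSP had a lowest, median and highest value of 14.0, 19.3 and 22.3 CPM, and the 10 downstream libraries 20.5, 36.5 and 57.9 CPM. For Bmp4 the corresponding values were 25.9, 37.5 and 57.9 CPM against 25.7, 74.2 and 114 CPM. The library ranges of the 2 groups overlapped for all 10 members.

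The remaining 6 members did not pass in this contrast. The log2 differences were 0.28 ± 0.25 for Smad4, 0.11 ± 0.22 for Bmpr1b, 0.10 ± 0.23 for Bmp6, 0.050 ± 0.12 for Bmp2, 0.021 ± 0.11 for Acvr1 and -0.039 ± 0.15 for Bmpr2 (all ± SE). Leaving out 6C3 input replicate 2, the library with 29.5 CPM, raised the Smad4 difference to 0.53 (adjusted p = 0.032). Within the contrast the cartilage, bone (mostly Col1a1) and blood marker sums given above differed as well. The endothelial sum was highest in the downstream PCP. The part of these sums in the mRNA differences was not tested. In such bulk libraries fewer cells that express a gene and less RNA of it per cell cannot be told apart.

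**Figure D2:**
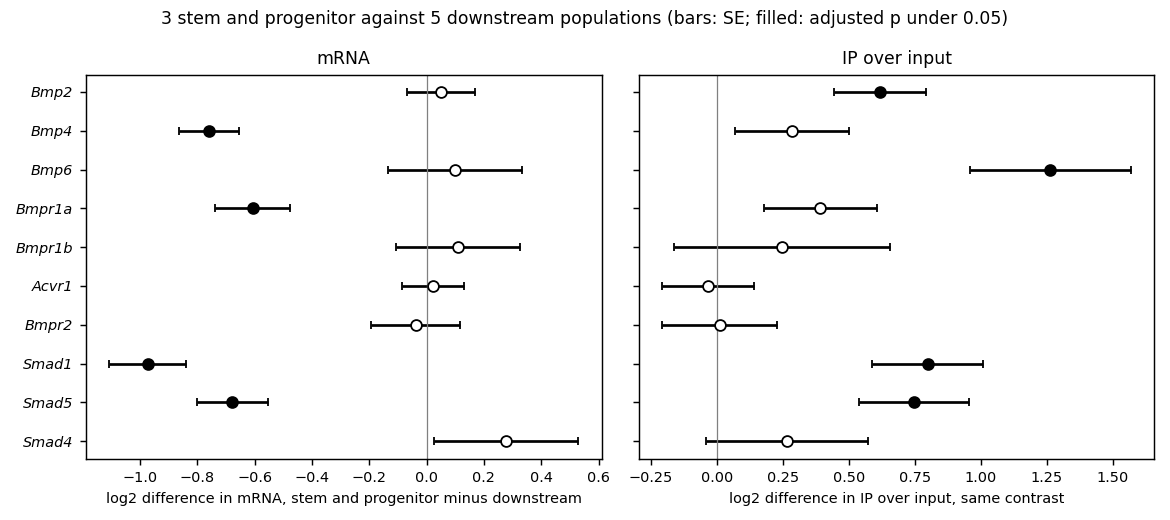
Log2 difference of SSC, pBCSP and BCSP minus the 5 downstream WT populations for each member, in input mRNA (left) and in the ratio of IP to input (right). Points are edgeR estimates, bars are SE and filled points have an adjusted p under 0.05. Smad1 and Smad5 lie left of 0 for mRNA (-0.97 and -0.68) and right of 0 for the ratio (0.80 and 0.75), and the input libraries enter both panels.

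The pathway around the members was read from a list of 54 further genes, drawn up with earlier results of these data known. Shares of that list, here and below, are description and no test of the pathway. Of its genes, 50 were tested. Of these, 23 were higher and 18 lower in SSC, pBCSP and BCSP, where 23.1% of all genes were higher and 28.3% lower. Among the other ligands, 5 of the 6 tested were higher and none lower. Bmp7, a ligand of kidney, eye and skeletal development, was higher by 2.2 ± 0.12 (log2, SE), Bmp8a by 3.06 ± 0.25 and Bmp3 by 1.5 ± 0.14. Of the 3 ligands among the members, Bmp4 was lower and Bmp2 and Bmp6 did not pass. Target genes ran mostly the same way as the other ligands, with 10 of 12 higher and 1 lower. Id1 and Id2, direct transcriptional targets of phosphorylated Smads, were higher by 2.10 ± 0.19 and 2.16 ± 0.12, and Atoh8, another target, by 2.17 ± 0.13. Id1 averaged 292 CPM in SSC, pBCSP and BCSP against 66.5 CPM downstream. Levels of these targets were thus higher where Smad1 and Smad5 mRNA were lower.

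Of the 8 other receptors and co-receptors, 5 were lower and 1 was higher. The endothelial type I receptor Acvrl1 was lower by 1.26 ± 0.18 on the log2 scale (SE; -1.26) and the co-receptor Rgmb by 0.92 ± 0.14 (-0.92), and the decoy receptor Bambi was higher by 1.68 ± 0.14. Acvrl1 stood at 3.18 to 8.13 CPM in SSC, pBCSP and BCSP, at 18.6 and 15.8 CPM in PCP, where the endothelial marker sum was highest, and at 26.4 and 25.2 CPM in THY, where that sum was 7.72 and 9.47 CPM. The part of endothelial cells in its difference was not tested. Of the 14 extracellular antagonists and modulators, 5 were higher, among them Sostdc1 (1.48 ± 0.13) and Chrdl2 (1.45 ± 0.14), and 8 were lower, among them Fstl1 (-1.75 ± 0.14). Of the 10 other Smads and intracellular regulators, 2 were higher and 4 lower. Smad9, the other receptor-activated Smad of the pathway, was higher by 1.94 ± 0.27 but averaged only 5.81 and 1.55 CPM in the 2 groups. Tob1, an antiproliferative regulator (-0.999 ± 0.090), and the phosphatase Ppm1a (-0.98 ± 0.16) were lower.

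**Figure D3:**
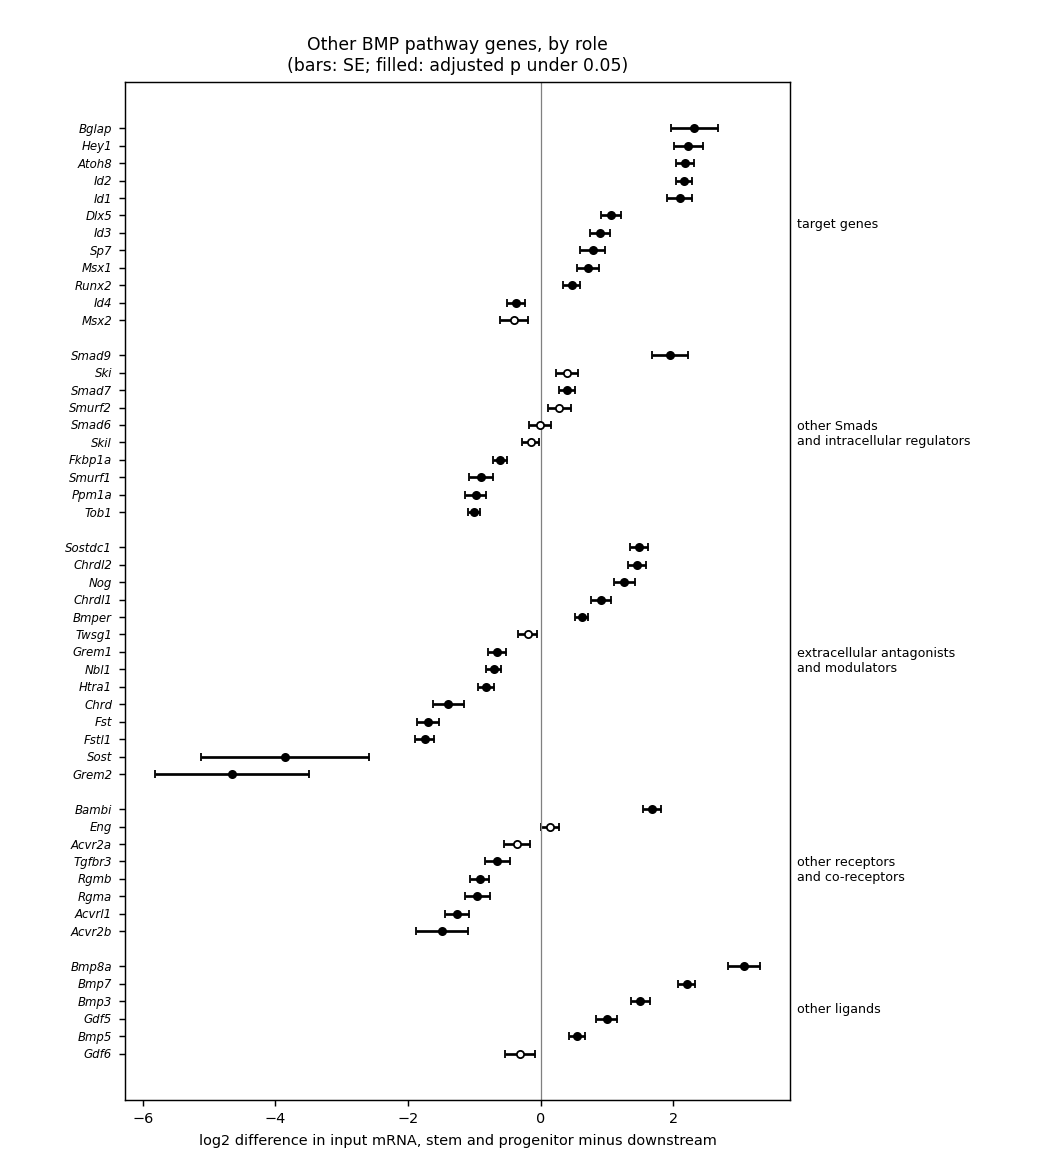
Log2 difference in input mRNA of SSC, pBCSP and BCSP minus the 5 downstream WT populations for the 50 other pathway genes tested, grouped by role. Points are edgeR estimates, bars are SE and filled points have an adjusted p under 0.05. Target genes and other ligands lie mostly right of 0, with 10 of 12 and 5 of 6 higher.

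The ratio of IP to input asks which transcripts carry relatively more m6A. It was scaled so that the bulk of genes sit near 0, and hence compares genes within a library and gives no absolute stoichiometry. Over the 8 WT populations 6 members were above input, where 17.2% of 25365 genes were, and 3 were below, where 25.2% were. Smad4 and Bmpr2 stood highest, at log2 ratios of 1.71 ± 0.15 (SE) and 1.49 ± 0.11, followed by Bmpr1a (0.82 ± 0.10), Bmp6 (0.70 ± 0.15), Acvr1 (0.67 ± 0.08) and Smad1 (0.62 ± 0.10). Bmpr1b (-0.75 ± 0.20), Bmp4 (-0.49 ± 0.11) and Bmp2 (-0.29 ± 0.08) were below input, and Smad5 was at -0.017 ± 0.10. Adjusted p (edgeR) was at most 0.0051 for the 9 members called, and the median log2 ratio was 0.65 over the members and 0.0040 over all genes. With DESeq2 size factors, which moved the median of all genes by 0.12, Bmp2 was at -0.16 and no longer passed (adjusted p = 0.12). Among the ligands Bmp6 was thus above input and Bmp4 below it, and among the type I receptors Bmpr1a and Acvr1 were above and Bmpr1b below. The Smad5 estimate changed sign with the scaling (0.11 with DESeq2 size factors), and Smad1 and Smad5 were not tested against each other.

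Replicate values show how steady these ratios were. All 16 WT pairs of IP and input libraries were above 0 for Smad4, Bmpr2, Bmpr1a and Acvr1, with lowest, median and highest log2 ratios of 0.94, 1.38 and 2.55 for Bmpr2 and 0.60, 1.82 and 3.07 for Smad4. Both extremes of Smad4 came from 6C3. Of the 16 pairs, 15 were above 0 for Bmp6, 14 for Smad1, 8 for Smad5, 4 for Bmp2, 3 for Bmpr1b and 1 for Bmp4. The motif density did not order the members in the same way. Bmp4, the densest in GGACT, lay below input, whereas Bmpr1a, the sparsest, lay above it.

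**Figure D4:**
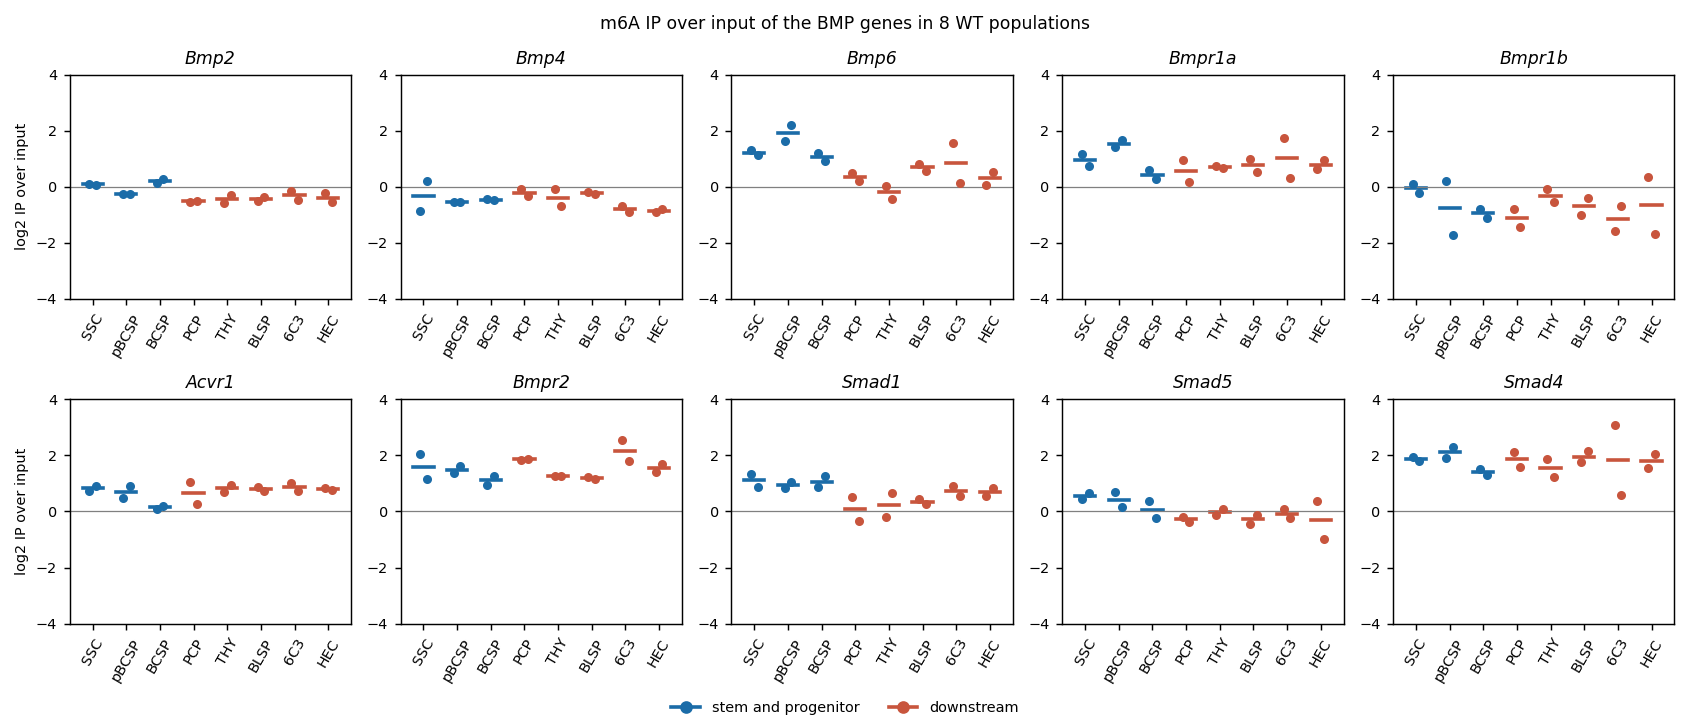
Log2 ratio of IP to input for the 10 members in the 8 WT populations (x axis), from CPM with a prior count of 2. Points are the 2 replicates and lines their mean, blue for SSC, pBCSP and BCSP and red for downstream populations, with 0 marked in grey. Smad4 and Bmpr2 lie above 0 in all 16 pairs of libraries, and Bmp6 is highest in pBCSP, at 1.64 and 2.21.

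Within single populations the study calls a gene m6A-tagged at a log2 ratio above 1 with an unadjusted p under 0.05, a rule that 10.4% of genes met in SSC, 12% in pBCSP, 6.67% in BCSP, 10.6% in PCP, 12.4% in THY and in BLSP, 14.5% in 6C3 and 13.5% in HEC. By that rule 25 of the 80 values were tagged. Smad4 and Bmpr2 were tagged in all 8 populations, Smad1 and Bmp6 in SSC, pBCSP and BCSP, Bmpr1a in SSC, pBCSP and 6C3, and the other 5 members in none with all libraries in the fit. The Smad1 ratios were 1.16 ± 0.36, 1.03 ± 0.23 and 1.11 ± 0.31 (SE) in those 3 populations and between 0.09 and 0.77 in the downstream ones. The Bmp6 ratios were 1.29 ± 0.44, 2.04 ± 0.30 and 1.09 ± 0.30 against -0.21 to 0.62 downstream. With adjustment over all genes, 15 of those 25 tags kept an adjusted p under 0.05 (edgeR): Bmpr2 in 7 populations, Smad4 in 5 (pBCSP, PCP, THY, BLSP and HEC), and Bmpr1a, Smad1 and Bmp6 in pBCSP alone. Of all genes, that threshold was passed by 3.16% (BCSP), 9.41% (SSC) and 20.1% (pBCSP), and downstream by 12.3% (PCP), 26% (THY), 26.2% (6C3), 27.5% (BLSP) and 33.2% (HEC).

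Several tags rested on a single library. Bmp6 gained one in 6C3 without input replicate 2, where its ratio rose from 0.57 to 1.77 (edgeR adjusted p = 0.0011). Acvr1 gained one in SSC without IP replicate 1 (1.08) or input replicate 2 (1.05), against 0.92 with all libraries. With no filter on low counts the tags of Bmpr1a in 6C3 (0.91) and SSC (0.99) and of Bmpr2 in BLSP (0.99) were lost, leaving 22. The Smad4 tag in 6C3 had a ratio of 0.85 without input replicate 1 and an unadjusted p of 0.061 without IP replicate 1 (edgeR). The Bmpr1a tag in 6C3 fell to 0.62 and 0.69 without the same libraries, and in SSC to 0.78 without input replicate 1. The Bmpr2 tag in BLSP fell to 0.83 without input replicate 2 and to 0.85 without IP replicate 1. Smad1 lost its tag without input replicate 1 in SSC (0.82), without IP replicate 2 in pBCSP (0.92), and without IP replicate 2 (0.88) or either input library in BCSP. Bmp6 lost it without input replicate 1 in BCSP (0.87) and without input replicate 1 or IP replicate 2 in SSC (0.88 each).

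Whether the ratio differed between populations was tested directly. Across the 8 WT populations 0 members passed the adjusted threshold, and 123 of 25365 genes did (0.485%). At an unadjusted p under 0.05, Bmp6 (0.013) and Smad1 (0.026) were the members below it, where 7.97% of genes were, and DESeq2 called 0 members and 1000 genes. With IP and input of the same replicate number paired, Bmp6 passed (adjusted p = 0.011), and the number of genes called rose from 123 to 923.

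In the narrower contrast of SSC, pBCSP and BCSP against the downstream populations, the ratio was higher for Bmp6, Smad1, Smad5 and Bmp2, 4 of 10 members where 3.06% of 25365 genes were higher and 1.77% lower. The log2 differences were 1.26 ± 0.31 (SE) for Bmp6 (adjusted p = 0.013, edgeR), 0.80 ± 0.21 for Smad1 (0.023), 0.75 ± 0.21 for Smad5 (0.034) and 0.62 ± 0.17 for Bmp2 (0.035). The median was 0.34 over the members and -0.079 over all genes. Bmp6 ratios were 0.91 to 2.21 in the 6 library pairs of SSC, pBCSP and BCSP and -0.44 to 1.54 in the 10 downstream pairs, and the only downstream pair inside the first range was 6C3 replicate 1, with the next at 0.81. Smad1 ratios were 0.85 to 1.33 against -0.34 to 0.90.

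The 4 calls were not equally firm. Bmp6 passed under all 5 other settings and with each of the 16 pairs of libraries left out in turn. With DESeq2 size factors, which moved the median of all genes by -0.16, the differences were 0.63 for Smad1, 0.58 for Smad5 and 0.45 for Bmp2, and only Bmp6 passed. That scaling also changed the split of all genes called from 63.3% higher to 40.5% higher. Bmp2 lost its call in 12 of the 16 leave-outs, Smad5 in 11 and Smad1 in 7. The lowest difference was without pBCSP replicate 1 for Bmp2 (0.49) and Smad5 (0.53) and without HEC replicate 1 for Smad1 (0.64), and the calls were also lost without libraries of SSC, BCSP, PCP, THY, BLSP and 6C3. For Smad1 and Smad5 the input mRNA was lower in the same populations, and the input enters the ratio, so the 2 differences do not come from separate measurements. Mitochondrial genes took 4.53% to 9.10% of counts in the downstream IP libraries against 1.56% to 2.92% in the other WT IP libraries, and their part in the ratio was not tested. The other 6 members gave ratio differences of 0.39 ± 0.22 (Bmpr1a), 0.28 ± 0.22 (Bmp4), 0.27 ± 0.31 (Smad4), 0.25 ± 0.41 (Bmpr1b), 0.0098 ± 0.22 (Bmpr2) and -0.033 ± 0.17 (Acvr1).

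Of the other pathway genes, 14 of 50 were above input in their ratio over the 8 populations, where 17.2% of all genes were, and 24 were below, where 25.2% were. All 6 other ligands tested were below input, including Gdf5 (-2.27 ± 0.21, SE), Bmp7 (-1.33 ± 0.17) and Bmp3 (-1.10 ± 0.17). Among other receptors and co-receptors 5 of 8 were below and none above, with Bambi at -1.08 ± 0.09. Among intracellular regulators 7 of 10 were above, including the transcriptional repressors Ski (1.5 ± 0.11) and Skil (1.36 ± 0.08), and only Tob1 was below (-0.91 ± 0.07). Of the antagonists 2 were above and 8 below, and of the target genes 5 were above, including Id2 (1.33 ± 0.09), and 4 below, including Msx1 (-2.31 ± 0.18) and Atoh8 (-1.64 ± 0.18). In the contrast of the ratio between SSC, pBCSP and BCSP and the downstream populations, 4 of the 50 were higher and 1 lower, where 3.06% and 1.77% of all genes were. The number higher was 0 with DESeq2 size factors (2 lower), 1 with no filter on low counts and 7 with the replicate block.

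Libraries labelled Mettl3cko were compared with WT in SSC, pBCSP and BCSP to ask how loss of the m6A writer goes with mRNA of the members. By the rule of the study, a log2 difference beyond 0.5 with an unadjusted p under 0.05, Acvr1 was higher and Bmpr1a lower in Mettl3cko SSC. Acvr1 was measured at 79.4 and 59.6 CPM in Mettl3cko SSC and 42.9 and 51.2 CPM in WT SSC, and Bmpr1a at 17.7 and 15.2 CPM against 23.7 and 32.7 CPM. Neither gene overlapped between genotypes there, and neither did Bmpr1b, Smad1, Smad5, Bmp2 and Bmp4, which were not called. The share of all genes without overlap is not given here. The log2 differences were 0.56 ± 0.23 (SE) for Acvr1 (edgeR adjusted p = 0.32) and -0.78 ± 0.27 for Bmpr1a (edgeR adjusted p = 0.26). In SSC 6.96% of genes were higher and 7.07% lower by that rule. No gene of 16100 passed the adjusted threshold in the main edgeR fit, although 14.7% had an unadjusted p under 0.05. In pBCSP and BCSP that share was 8.37% and 13%, again with no gene past the adjusted threshold. With no filter on low counts edgeR called 793 genes in SSC, 245 in pBCSP and 540 in BCSP, and with the replicate block 288, 0 and 46. DESeq2 called 661, 158 and 548. The Acvr1 call was lost without WT replicate 1 (log2 difference 0.45), WT replicate 2 (0.72, with a larger error) or Mettl3cko replicate 1 (0.37), and the Bmpr1a call without WT replicate 2 (-0.51) or Mettl3cko replicate 2 (-0.68).

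In pBCSP and BCSP no member met that rule, where 3.88% of genes were higher and 4.48% lower in pBCSP, and 7.22% and 5.72% in BCSP. Bmp2 in BCSP, at 0.53 ± 0.25 (SE), met it with DESeq2 (unadjusted p = 0.039), with no filter on low counts (edgeR, 0.037) and without BCSP Mettl3cko input replicate 1 (0.77 on the log2 scale). Bmp4 in SSC, at -0.62 ± 0.33, met it with no filter (-0.61) and without SSC Mettl3cko input replicate 2 (-1.12). Without pBCSP Mettl3cko input replicate 2 the log2 differences in pBCSP were -1.02 for Bmp2, -0.73 for Bmp4 and -0.85 for Bmpr1a, which then met the rule. With all libraries they were -0.41, -0.46 and -0.41. The share of all genes that met the rule in that fit is not given here. Over the 3 populations together 0 members passed the adjusted threshold, which 6.48% of 18655 genes passed by edgeR. The nearest was Acvr1, at 0.35 ± 0.12 (SE; edgeR adjusted p = 0.12), which DESeq2 called (0.36, adjusted p = 0.041). Bmpr1b (-0.59 ± 0.28), Bmp4 (-0.35 ± 0.19), Bmpr1a (-0.33 ± 0.19) and Smad4 (-0.25 ± 0.19) had lower estimates and Bmp6 (0.27 ± 0.21), Bmp2 (0.17 ± 0.18) and Smad5 (0.12 ± 0.13) higher ones, without passing. Smad1 (-0.049 ± 0.18) and Bmpr2 (-0.0022 ± 0.15) were nearest to 0. No gene passed edgeR's test of whether the response differed between the 3 populations in the main fit, where 80 did with no filter and 2 with the replicate block. At an unadjusted p under 0.05 it was 4.5% of all genes and 0 of the members, and DESeq2 called 41 genes and 0 members.

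**Figure D5:**
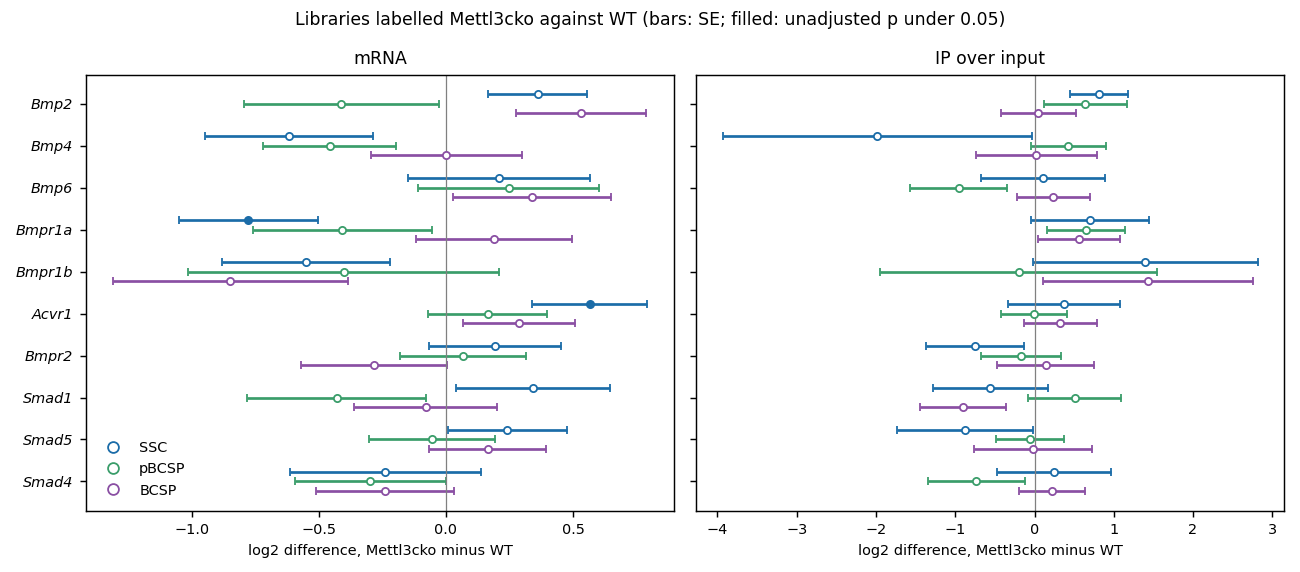
Log2 difference of libraries labelled Mettl3cko minus WT for each member in SSC (blue), pBCSP (green) and BCSP (purple), in input mRNA (left) and in the ratio of IP to input (right). Points are edgeR estimates, bars are SE and filled points have an unadjusted p under 0.05. Only Acvr1 (0.56) and Bmpr1a (-0.78) in SSC are filled, and the Bmp4 ratio in SSC has the longest bar to the left (-1.99 ± 1.95).

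The ratio of IP to input was not detectably changed for any member between Mettl3cko and WT. In each population 0 of 10 members had an unadjusted p under 0.05, where 14.5% (SSC), 11.9% (pBCSP) and 10.3% (BCSP) of genes did by edgeR, and DESeq2 gave the same count of members. Some members fell below that threshold when replicate 1 or 2 of Mettl3cko SSC or pBCSP was left out. The share of all genes in those fits is not given here. Log2 differences moved from 0.64 to 1.31 for Bmp2 in pBCSP without replicate 2. For Smad5 in SSC they moved from -0.88 to -2.04 without replicate 1. Over the 3 populations 0 passed the adjusted threshold, where 0.643% of genes were higher and 3.3% lower and the median of all genes was -0.39. The most enriched members, Smad4 and Bmpr2, were also above input in the libraries labelled Mettl3cko, with Smad4 at log2 ratios of 2.06 and 2.03 (SSC), 0.89 and 1.82 (pBCSP) and 1.75 and 1.55 (BCSP), and Bmpr2 between 0.60 and 1.83. Bmpr1a log2 ratios in Mettl3cko and WT were 1.99 and 0.98 against 1.18 and 0.75 in SSC, 2.58 and 2.03 against 1.43 and 1.65 in pBCSP, and 1.23 and 0.84 against 0.58 and 0.26 in BCSP. The Bmpr1a libraries did not overlap between genotypes in pBCSP and BCSP and overlapped in SSC. The Bmpr1a difference over the 3 populations was 0.63 ± 0.36 (SE; edgeR adjusted p = 0.45) and did not pass. Other members separated too, for example Bmp2 in pBCSP upward and Smad4 in pBCSP and Smad1 in BCSP downward. The share of all genes without overlap is not given here. Standard errors over the 3 populations were 0.28 to 0.89, against 0.17 to 0.41 for the contrast of the ratio among WT populations. Bmp4 in Mettl3cko SSC replicate 2 had 4 counts in the IP library and a log2 ratio of -6.71, against -0.76 in replicate 1. Without replicate 1 the Bmp4 difference over the 3 populations became -2.19 (edgeR adjusted p = 0.0087), which rests on that library.

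Among the other pathway genes, 2 were higher and 6 lower in Mettl3cko over the 3 populations, of 49 tested, where 3.75% and 2.72% of all genes were. Since the list was drawn up with earlier results of these data known, this is no test of the pathway. The counts were 3 higher and 12 lower with DESeq2, 4 and 15 of 53 with no filter on low counts and 1 and 5 with library size alone. The targets Id2 (-1.10 ± 0.19, SE) and Atoh8 (-1.12 ± 0.21) and the inhibitory Smad7 (-0.62 ± 0.13) were lower, with edgeR adjusted p of 0.0082, 0.011 and 0.017, together with the ligand Bmp7, the antagonist Grem1 and the target Id3. Msx1, a homeobox target, and Chrdl1, a BMP antagonist, were higher by 0.59 ± 0.15 and 0.87 ± 0.20. Id2 and Atoh8 passed with each of the 12 libraries left out in turn. Smad7 was lost without SSC WT replicate 2 (0.065) or BCSP Mettl3cko replicate 1 (0.053), and Id3, named here after its value was seen, in 8 of the 12 leave-outs. Grem1 was lost in 10 of the 12, Bmp7 in 9, Msx1 in 7 and Chrdl1 in 5, and Msx1 and Id3 also with library size alone (0.051 and 0.064). With 1 library left out, 0 to 3 were higher and 2 to 12 lower. Cartilage marker sums were 54185 to 109024 CPM in the Mettl3cko input libraries and 86989 to 104018 CPM in WT, and their part was not tested.

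Genes with the most similar log2 input levels over the 16 WT libraries were named for each member. The nearest were Erbb2ip for Bmpr1a (Pearson r = 0.953), Ninj1 for Acvr1 (0.949), Gm16340 for Smad1 (0.948), Bmpr2 with the mitochondrial mt-Nd4 (0.930), Pklr for Smad5 (0.920) and Cib2 for Bmp4 (0.916). They were lower for Bmp6 (Mvb12a, 0.884), Bmpr1b (Glrb, 0.854) and Smad4 (Sfpq, 0.849). Among the members themselves, Smad1 correlated with Smad5 at 0.836 and with Bmpr1a at 0.809, and Bmp2 with Bmp6 at 0.793. All are over 16 libraries that share 8 populations.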

How the data were processed

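Sorted skeletal populations of postnatal day 3 mice were profiled by SLIM-seq, a low-input m6A immunoprecipitation, with an IP and an input library from each of 22 pairs of sample and replicate. Per the methods and the submitters' processing notes, the authors trimmed reads with fastp 0.20.1, aligned them to GRCm38 with HISAT2 2.2.1 and counted reads per gene with featureCounts 2.0.1, and the deposited count table holds raw counts. The annotation, strand setting and treatment of multiply mapped reads are not given in the sources used here. Deposited tables holding only the authors' own comparisons (fold changes and p-values) were not used.

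Groups were taken from the sample titles, since the genotype label reads wild type throughout. Of 46959 entries, 128 sharing a name were left out (at most 0.390% of a library). Counts were tested with edgeR 4.0.16 (filterByExpr, TMM, quasi-likelihood F test, Benjamini-Hochberg adjustment over all genes, called under 0.05), with the standard error as the size of the log2 difference over the square root of F. Levels are CPM after TMM scaling of all 44 libraries, ratios of single pairs used a prior count of 2, and per-kilobase levels used the union of GENCODE vM21 exons. Library totals were 16480027 to 44046651 counts. Scripts were tested on simulated counts.

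The members and gene lists were chosen with earlier results of these data known. Named were the members, at most 3 further pathway genes of each role by smallest p in a comparison, and the genes most correlated with each member. Alternatives were a replicate block, each library left out, all genes with any count, scaling by library size only, and DESeq2 1.42.0 as the test or for its size factors. IP and input of the same number were treated as a pair in the blocked fits, since the study divided each sort between m6A profiling and RNA-seq, although it does not say that the numbers mark a sort. Their deviations from the group means correlated at 0.043 to 0.379 in the 8 WT populations, over 0.1 in 5. No 2 replicate libraries agreed within sampling noise.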

Additional observations from a re-analysis of the deposited data

Results flagged for a closer look

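The estimates of the Smad1 mRNA response in the libraries labelled Mettl3cko had opposite signs in SSC and pBCSP. Smad1 was picked because its libraries separated by genotype in opposite directions, so that separation cannot count as evidence. The log2 difference of Mettl3cko minus WT was 0.34 in SSC, where both Mettl3cko libraries (23.2 and 22.9 CPM) lay above both WT libraries (14.0 and 22.3 CPM), -0.43 in pBCSP, where both (10.5 and 16.8 CPM) lay below WT (18.7 and 18.6 CPM), and -0.080 in BCSP. The test of the difference between the 3 populations did not pass (edgeR, adjusted p = 0.95), so opposite responses were not established.

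The log2 ratio of IP to input differed between SSC, pBCSP and BCSP and the downstream populations, in a test of the difference itself, by 1.26 for Bmp6, 0.80 for Smad1, 0.75 for Smad5 and 0.62 for Bmp2, all higher in SSC, pBCSP and BCSP. Only the Bmp6 difference passed under every setting and leave-out tried.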

How the results depend on the processing

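Counts of members called moved as follows. mRNA across populations gave 7, but 8 with DESeq2, with no filter on low counts and with the replicate block, Bmpr1b being added each time (edgeR adjusted p = 0.04993 with the block). Of all genes 8039 of 20060 were called, 10271 with DESeq2, 7793 with the block and 9726 of 35540 with no filter. The ratio over the 8 populations gave 9, but 8 with DESeq2 or its size factors, and tags 25, but 22 with no filter. Neighbouring populations gave 0, but 1 with DESeq2 and 2 with library size alone. The ratio between the 8 WT populations gave 0, but 1 with the replicate block (IP and input paired). The ratio of SSC, pBCSP and BCSP against downstream gave 4, but 3 with DESeq2, 1 with its size factors and 1 with no filter. Mettl3cko mRNA gave 2 in single populations but 4 with no filter and 3 with DESeq2 and with the block, and 0 over the 3 populations but 1 with DESeq2. The block added Bmp4 in SSC (-0.68), and with it 2 of the other pathway genes were higher and 11 lower in Mettl3cko mRNA. With libraries left out, the counts ranged from 5 to 7 for mRNA across populations, 4 to 5 for mRNA of the stem and downstream contrast, 0 to 1 for neighbours, 22 to 26 for tags, 9 to 9 for the ratio over 8 populations, 0 to 0 for the ratio between them, 1 to 4 for the ratio of the stem and downstream contrast, 0 to 5 for Mettl3cko mRNA in single populations, 0 to 0 over the 3, 0 to 0 for the difference between them, 0 to 5 for the Mettl3cko ratio in single populations and 0 to 1 over the 3. Shares of all genes in the fits with libraries left out are not given here, and the causes were not tested.

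Values that changed sign were not called. With library size alone the stem and downstream mRNA difference was -0.069 for Acvr1 and -0.039 for Bmp2. The Bmpr2 ratio in that contrast was -0.15 with DESeq2 or its size factors, -0.013 with library size alone, -0.13 with no filter and -0.00376 with the replicate block. The Smad5 ratio over 8 populations was 0.11 with DESeq2 or its size factors and 0.017 with library size alone, and Bmpr2 mRNA in Mettl3cko was 0.011 with both of the former. With libraries left out, stem and downstream mRNA differences ranged from -0.033 to 0.074 for Acvr1, -0.015 to 0.12 for Bmp2, -0.077 to 0.36 for Bmp6, -0.22 to 0.31 for Bmpr1b and -0.12 to 0.043 for Bmpr2. Ratio differences of that contrast ranged from -0.16 to 0.010 for Acvr1, -0.14 to 0.65 for Bmpr1b, -0.15 to 0.18 for Bmpr2 and -0.019 to 0.48 for Smad4, and the Smad5 ratio over 8 populations from -0.092 to 0.035. For Mettl3cko over the 3 populations, mRNA ranged from -0.035 to 0.31 for Bmp2, -0.11 to 0.086 for Bmpr2 and -0.18 to 0.084 for Smad1, and the ratio from -0.15 to 0.48 for Acvr1, -0.098 to 1.17 for Bmpr1b and -0.31 to 0.029 for Smad4. Of 110 other values in single populations, 38 changed sign under some setting.

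Over all genes, the ratio between the 8 populations was called for 123 genes, 1000 with DESeq2, 866 with no filter and 923 with the replicate block, and Mettl3cko mRNA over the 3 populations for 1208, 2408 with DESeq2 and 2200 with no filter. The Mettl3cko ratio was called for 803, 2239 with DESeq2 and 204 with the block. The numbers of Mettl3cko and WT libraries share no deviations (correlations of -0.029 to 0.032). Fits that leave 1 library in a group assume that it varies like the others, and with 2 libraries a group small differences were not detectable.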
